A study of Mus musculus with 6 samples.

Results

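The genes described here carry out glycolysis, handle pyruvate and lactate, or sense and answer low oxygen. They were taken as a list of 35 names and matched to the gene names, older synonyms and gene IDs in the authors' comparison table. The match found 32 genes on 69 probe sets, of 12288 named genes in all. Eno2, Epas1 and Ankrd37 matched no entry and were not analysed here. No filter on low values was applied, so all 32 genes were tested. The probe set that stood for each of the 32 carried the highest detection score, 6, which was read as detection on all 6 arrays, and 63 of the 69 probe sets had it.

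The 2 fractions came from mouse CGR8 embryonic stem cells, a feeder-independent line, grown as embryoid bodies and sorted on day 5. Double-positive cells carried CXCR4 and FLK-1 on their surface, and double-negative cells carried neither. Each fraction was collected independently 3 times and put on 3 Affymetrix mouse genome arrays, and the labels give no genetic change or added agent in either fraction. All 6 samples come from 1 cell line, and the series text calls the material RNA pools without giving what was pooled, so p-values speak only of the spread among such pools. An exact permutation test of 3 arrays against 3 cannot go below 0.1, so the tests are from limma fits over all genes. Each deposited value is a ratio, the probe set's signal over its median in double-negative cells. Such ratios compare arrays for 1 probe set and give no level that could be set against another gene. In such bulk samples a smaller share of expressing cells and less RNA per cell cannot be told apart.

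Glycolysis splits glucose into pyruvate and gains ATP without oxygen, and lactate dehydrogenase then turns pyruvate into lactate, while the pyruvate dehydrogenase complex sends it into the citric acid cycle. The transcription factor HIF-1 is built from the oxygen-labile HIF1A protein and a stable partner, and prolyl hydroxylases of the EGLN family mark HIF1A for destruction when oxygen is present. When oxygen is low, HIF-1 binds the core sequence ACGTG or GCGTG and induces most glycolytic enzymes, Pdk1, Bnip3 and the collagen prolyl hydroxylases. Pluripotent stem cells are known for a high glycolytic rate, and cardiac differentiation for a move towards respiration.

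The transcripts of the pathway as a whole showed no resolved difference between the 2 fractions, which does not show that they were alike. The log2 difference, double positive minus double negative, was under 0.3 in size for 20 of the 32 genes, with a median of -0.02 beside 0.04 over all named genes. Means were higher for 15 genes and lower for 17. Tested over all 12288 genes with limma, 0 of the 32 passed an adjusted p of 0.05, where 0% of all genes passed. At an unadjusted p under 0.05 limma again gave 0 of the 32, beside 5.14% of all genes, 1.72% higher and 3.42% lower. In the authors' deposited table, read at the probe set that stood for each gene, Egln3 and P4ha1 had a p under 0.05. These were 2 of the 32, beside 3.82% of all genes. Another probe set of Ldhb, on the lower side, had a deposited p of 0.0497. The 3 double-positive arrays lay wholly above or below the double-negative ones for 4 genes, 12.5% of the 32, beside 10.5% of all genes, 5.14% higher and 5.33% lower. These 4 were Hk1 and Ndrg1 on the lower side and Egln3 and P4ha1 on the higher side.

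The labels do not say what arrays of the same replicate number share, and their pairing was read from these data, as described under processing. A fit with the replicate number as a block uses the differences within such pairs. In it 6 of the 32 genes had an unadjusted p under 0.05, which is 18.8% beside 13.9% of all genes, 6.27% higher and 7.63% lower, and 0 passed the adjustment, beside 0% of all genes. The 6 were Egln3 and P4ha1 on the higher side and Bnip3, Pdk1, Ldhb and Hk1 on the lower side. Adjusted p-values of these genes in the blocked limma fit started at 0.145. The sign was the same in all 3 pairs for 15 genes, 46.9% of the 32 beside 41.1% of all genes. Of these, 8 were higher, beside 23.2% of all genes, and 7 lower, beside 17.9%. By these shares the 32 genes lay near the background of the arrays, and the members below are described by their own values.

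**Figure D1:**
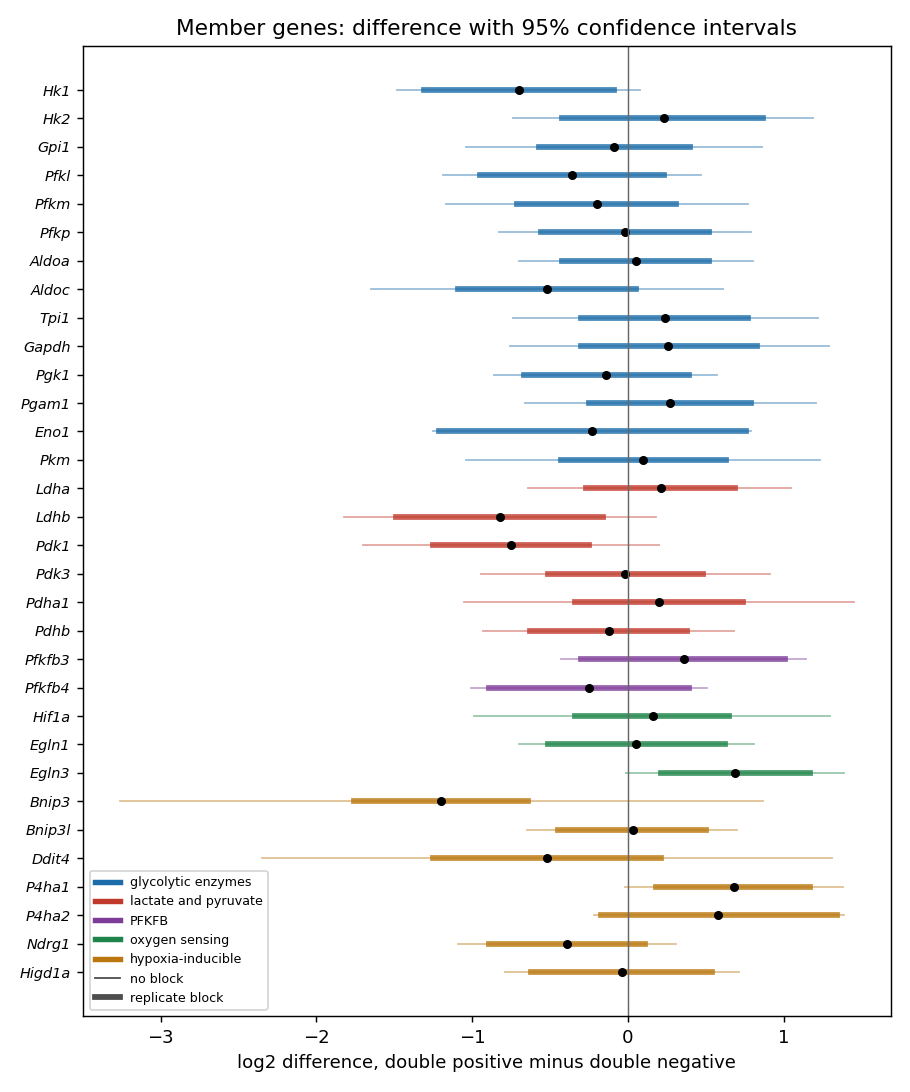
Log2 difference, double positive minus double negative, for each of the 32 genes (dots), coloured by role. Thin lines are 95% confidence intervals without and thick lines with the replicate block, n = 3 arrays per fraction. Intervals for Bnip3, Pdk1, Ldhb and Hk1 lay below 0 and those for Egln3 and P4ha1 above 0 only with the block.

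The replicate 1 arrays stood apart from the others, and this touches many of the values below. The median log2 ratio over all named genes was -0.40 in double-positive replicate 1 and -0.42 in double-negative replicate 1, against 0.00 to 0.12 on the other 4 arrays. The mean log2 ratio of 5' to 3' control probe sets for Actb and Gapdh served as a measure of RNA and labelling quality. It was -0.51 in double-positive replicate 1 and -2.03 in double-negative replicate 1, against 0.02 to 0.06 elsewhere. This measure was built from ratios to the double-negative median, so it only compares arrays. Values near 0 do not show balanced 5' and 3' signal. Both sorted genes, Cxcr4 (log2 difference 2.47, SE 0.415) and Kdr (2.62, SE 0.655), which encodes FLK-1, were higher in all 3 pairs. Of 9 measured markers of pluripotent cells, 8 had lower means. At an unadjusted limma p under 0.05, 6 were lower, beside 3.42% of all genes. The mean log2 ratio of the 9 was between -1.31 and -0.92 on double-positive arrays, against -0.30 to 0.06 on double-negative arrays. Means were higher for 2 of 3 measured endothelial markers, 2 of 5 of primitive endoderm, 1 of 2 of cardiomyocytes and for the neural marker Nes. The part of this difference in cell content in the results below was not tested.

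Among the 14 measured glycolytic enzymes, means were higher for 6 and lower for 8, and the median log2 difference was -0.05. Hk1 encodes hexokinase 1, which with hexokinase 2 traps glucose in the cell as its phosphate. The ratios of Hk1 were 0.452, 0.736 and 0.755 in double-positive cells, against 1, 1.157 and 0.927 in double-negative cells (replicates 1 to 3 in this order, here and below). All 3 double-positive values lay below all double-negative ones, and double-positive replicate 1 was the lowest. The log2 difference was -0.70 (SE 0.341, n = 3 per fraction), a 1.62-fold lower mean, with an unadjusted limma p of 0.073 and an adjusted p of 1. With the block the unadjusted p was 0.0318 and the adjusted p 0.31. Without double-positive replicate 1 the difference was -0.46. Hk2 went the other way in its mean, at 0.23 (SE 0.422), with double-positive ratios of 0.691, 1.687 and 1.433 against 0.8, 1 and 1.302.

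The middle steps of the pathway showed differences within about their errors. Gpi1, the isomerase that makes fructose phosphate, was at -0.09 (SE 0.416). The phosphofructokinase genes, which encode the main control point of the pathway, were at -0.36 for the liver type Pfkl (SE 0.362), -0.20 for the muscle type Pfkm (SE 0.426) and -0.02 for the platelet type Pfkp (SE 0.355). Aldoa, the common aldolase, was at 0.05 (SE 0.329), and its 5 probe sets spanned 0.05 to 0.25. Aldoc, the brain-type aldolase, stood at 0.959, 0.317 and 0.823 in double-positive cells, against 1.219, 0.605 and 1 in double-negative cells. It was lower in each of the 3 pairs, at -0.35, -0.93 and -0.28, yet the fractions overlapped because replicate 2 was low in both. Its log2 difference was -0.52 (SE 0.495), and -0.02 without double-positive replicate 2.

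Of the 6 enzymes from triose phosphates to pyruvate, 4 had higher means, each within its error. Tpi1 was at 0.24 (SE 0.429), Pgam1, a mutase, at 0.27 (SE 0.41) and Pkm, pyruvate kinase of non-liver tissues, at 0.10 (SE 0.497). Pgk1, which makes ATP, was at -0.14 (SE 0.313), with all 3 of its probe sets lower. Gapdh, often used as a loading control, had ratios of 0.647, 1.112 and 1.028 in double-positive cells, against 0.411, 1 and 1.039 in double-negative cells. The 2 replicate 1 arrays were the low ones in both fractions. The log2 difference of Gapdh was 0.26 (SE 0.451), and it turned to -0.17 without double-negative replicate 1. The array's own control probe sets for Gapdh were at -0.07 for the 3' end, 0.03 for the middle and 0.41 for the 5' end, where double-positive ratios were 0.379, 1.077 and 1.123 against 0.174, 1 and 1.125. The 5' end was thus low on both replicate 1 arrays, and lowest in double-negative replicate 1.

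Eno1, enolase 1, shows how far the choice of probe set matters for a single array. The probe set that stood for it had 1.016, 1.191 and 1.097 in double-positive cells, against 2.516, 0.846 and 1 in double-negative cells, a log2 difference of -0.23 (SE 0.447). The high value of double-negative replicate 1 was not seen on the other 4 probe sets, where that array lay between 0.701 and 0.99. Those 4 had differences of -0.13 to -0.01. Over the 14 enzymes the median difference was 0.17 when double-positive replicate 1 was left out, beside 0.21 over all named genes. It was -0.15 when double-negative replicate 1 was left out, as over all named genes.

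**Figure D2:**
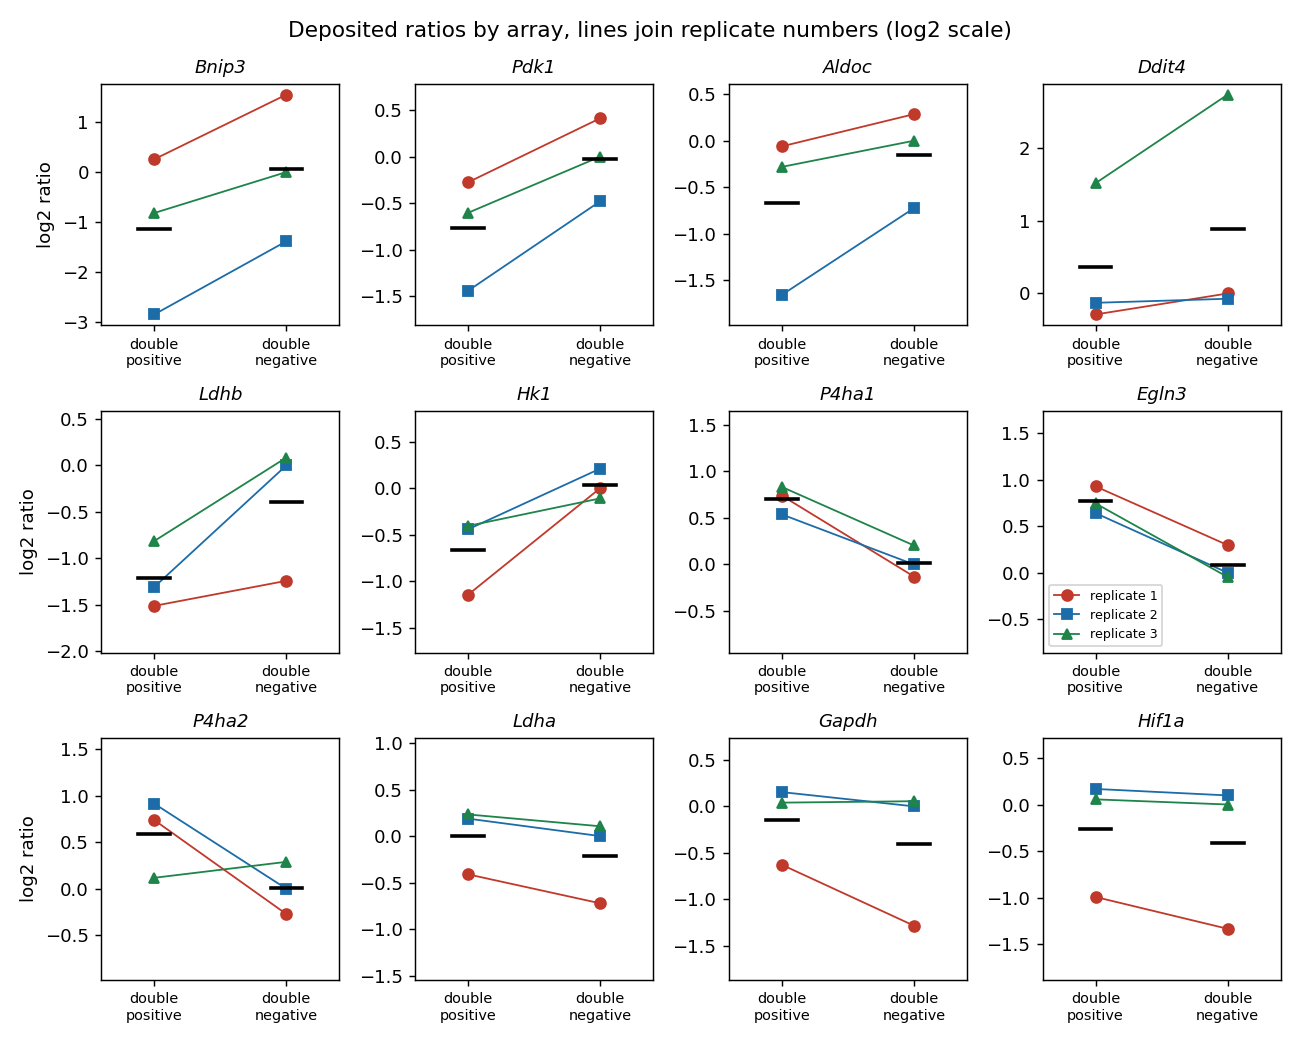
Deposited ratio to the double-negative median (log2 scale, axis ranges differ between panels) for 12 genes in double-positive and double-negative cells, lines joining arrays of the same replicate number, black bars the means. The lines of Bnip3, Pdk1, Aldoc, Ddit4, Ldhb and Hk1 all run to lower values in double-positive cells. Those of P4ha1, Egln3, Ldha and Hif1a all run to higher ones, while Ldha, Gapdh and Hif1a are mainly low in replicate 1.

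The 2 lactate dehydrogenase subunits differed in their values. Ldha encodes the subunit of the muscle form and Ldhb that of the heart form, and the enzyme is a tetramer mixed from both. Ldhb had ratios of 0.351, 0.404 and 0.569 in double-positive cells, against 0.423, 1 and 1.06 in double-negative cells. Double-negative replicate 1 lay among the double-positive values, so the fractions overlapped, but each pair was lower, at -0.27, -1.31 and -0.90. Its log2 difference was -0.82 (SE 0.438), a 1.77-fold lower mean, with an unadjusted limma p of 0.0943 and an adjusted p of 1. With the block the unadjusted p was 0.0243 and the adjusted p 0.29. All 4 probe sets of Ldhb were lower, between -1.0 and -0.82. One of them did not overlap between the fractions, with 0.362, 0.449 and 0.557 against 0.616, 1 and 1.184, and had an unadjusted p of 0.0269 in the limma fit over probe sets. It was the only one of the 69 with an unadjusted p under 0.05 in that fit, beside 4.71% of all named probe sets. Its adjusted p was 0.963, and the authors' deposited p for this probe set was 0.0497. Without double-negative replicate 1 the difference of Ldhb was -1.25, and without double-negative replicate 3 it was -0.59. Ldha had 0.752, 1.139 and 1.175 in double-positive cells, against 0.606, 1 and 1.076 in double-negative cells. It was higher in each of the 3 pairs, by 0.31, 0.19 and 0.13, but at 0.21 (SE 0.37) the difference was within its error, and it was -0.05 without double-negative replicate 1. The difference between the 2 subunits was not tested.

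The regions before the starts of these 2 genes are shown because ACGTG, one form of the HIF-1 core, is frequent before Ldha and not found before Ldhb. Both are the 250 bases before the transcription start in RefSeq, build GRCm38.p6, with ACGTG and its reverse complement CACGT in capitals. The Ldha region, chr7:46845554-46845803 on the plus strand, holds 5 matches counted on both strands, where CACGTG gives 1 on each. The Ldhb region, chr6:142507958-142508207 on the minus strand, holds 0, but its window holds the other form, GCGTG, left in lower case. A second RefSeq start of Ldha has 0 in its own 250 bases, and the windows of both Ldha starts also hold GCGTG. A link between these matches and the values of Ldha and Ldhb was not tested.
Ldha: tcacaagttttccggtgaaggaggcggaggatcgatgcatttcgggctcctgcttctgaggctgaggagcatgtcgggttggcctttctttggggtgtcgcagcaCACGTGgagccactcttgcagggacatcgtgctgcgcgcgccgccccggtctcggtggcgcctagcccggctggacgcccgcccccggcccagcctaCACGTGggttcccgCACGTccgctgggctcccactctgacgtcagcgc
Ldhb: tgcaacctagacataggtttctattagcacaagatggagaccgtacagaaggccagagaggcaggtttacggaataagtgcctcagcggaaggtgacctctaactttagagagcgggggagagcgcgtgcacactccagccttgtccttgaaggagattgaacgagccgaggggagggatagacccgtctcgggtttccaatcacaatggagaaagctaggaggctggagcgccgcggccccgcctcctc

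Entry of pyruvate into mitochondria is governed by the pyruvate dehydrogenase complex, which its kinases switch off. Pdk1, the kinase best known as a HIF-1 target, had ratios of 0.826, 0.368 and 0.658 in double-positive cells, against 1.331, 0.717 and 1 in double-negative cells. Replicate 1 was the highest and replicate 2 the lowest in both fractions, and each pair was lower, at -0.69, -0.96 and -0.60. Pdk1 thus differed by -0.75 (SE 0.416), a 1.68-fold lower mean, with an unadjusted limma p of 0.106 and an adjusted p of 1. With the block the unadjusted p was 0.0115 and the adjusted p 0.226. Its 3 probe sets lay between -0.75 and -0.71. Without double-positive replicate 2 the difference was -0.42. Pdk3, another kinase, was at -0.02 (SE 0.405). The subunit genes of the complex's E1 enzyme were at 0.20 for Pdha1 (SE 0.546) and -0.12 for Pdhb (SE 0.351). The enzymes of the PFKFB family set the level of fructose 2,6-bisphosphate, which activates phosphofructokinase. Pfkfb3 was at 0.36 (SE 0.343), with 1.221, 1.25 and 1.051 in double-positive cells against 1.17, 0.651 and 1 in double-negative cells. It was 0.11 without double-negative replicate 2, the low array, and 0.54 without double-negative replicate 1. Pfkfb4 was at -0.25 (SE 0.331), and neither differed beyond its spread.

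The oxygen sensor genes included 1, Egln3, with separate values on 1 of its 2 probe sets. Hif1a had ratios of 0.502, 1.123 and 1.039 in double-positive cells, against 0.396, 1.07 and 1 in double-negative cells. Values differed by replicate number far more than by fraction. The log2 difference was 0.16 (SE 0.5), it was -0.31 without double-negative replicate 1, and 1 of its 3 probe sets was at -0.18. HIF1A is controlled mainly as a protein, which these arrays do not measure. Egln1, the main prolyl hydroxylase that marks HIF1A, was at 0.05 (SE 0.33). Egln3, a prolyl hydroxylase gene that HIF-1 itself induces, had 1.904, 1.56 and 1.677 in double-positive cells, against 1.229, 1 and 0.969 in double-negative cells. All double-positive values lay above all double-negative ones, and the pairs were alike, at 0.63, 0.64 and 0.79. Egln3 thus differed by 0.69 (SE 0.306), a 1.61-fold higher mean, with an unadjusted limma p of 0.053 and an adjusted p of 0.992. With the block the unadjusted p was 0.0136 and the adjusted p 0.239. The other probe set of Egln3 pointed the opposite way, at -0.94 (SE 0.557). It had 0.384, 0.306 and 0.484 in double-positive cells, against 1.322, 1 and 0.301 in double-negative cells, with double-negative replicate 3 the lowest of all 6. The mean over both probe sets was -0.12, so the direction of Egln3 rests on the choice of probe set.

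Hypoxia-inducible genes outside glycolysis went both ways, with 3 of 7 means higher and a median of -0.04. Bnip3, which encodes a mitochondrial protein that promotes removal of mitochondria, varied most among the 32 genes, 21.3-fold over the 6 arrays. Its ratios were 1.195, 0.138 and 0.566 in double-positive cells, against 2.937, 0.382 and 1 in double-negative cells. As for Pdk1 and Aldoc, replicate 1 was the highest and replicate 2 the lowest in both fractions. Each pair was lower, at -1.30, -1.47 and -0.82. Bnip3 differed by -1.20 with SE 0.905 without the block (an unadjusted limma p of 0.221 and an adjusted p of 1) and SE 0.221 with it (an unadjusted limma p of 0.00253 and an adjusted p of 0.145). Of the double-positive arrays, leaving out replicate 1 gave -1.89 and leaving out replicate 2 gave -0.34. Of the double-negative arrays, leaving out replicate 1 gave -0.45 and leaving out replicate 2 gave -1.92. It was -1.15 without both replicate 1 arrays. Beside it, the mean log2 ratio of 4 markers of primitive red cells was 0.33, -0.78 and -1.71 in double-positive replicates 1 to 3 and 2.48, -0.21 and -0.58 in double-negative replicates 1 to 3. The 4 were the embryonic globins Hbb-bh1 and Hbb-y, then Klf1 and Epor, with log2 differences of -2.49, -2.66, -0.24 and 0.25. In double-negative replicate 1 they stood at 37.35, 10.24, 2.532 and 1 in this order. Their mean was lowest in replicate 3 in both fractions, whereas Bnip3 was lowest in replicate 2. The part of primitive red cells in the value of Bnip3 was not tested. Bnip3l, a relative of Bnip3 needed for clearance of mitochondria from maturing red cells, was at 0.03 (SE 0.295), with double-positive ratios of 0.93 to 1.082 and double-negative ones of 0.958 to 1.001.

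P4ha1 and P4ha2 encode the catalytic subunits of collagen prolyl 4-hydroxylases, which stabilise the collagen triple helix. P4ha1 had 1.67, 1.452 and 1.782 in double-positive cells, against 0.914, 1 and 1.152 in double-negative cells. The fractions did not overlap, and every pair was higher, by 0.87, 0.54 and 0.63. P4ha1 thus differed by 0.68 (SE 0.305), a 1.60-fold higher mean, with an unadjusted limma p of 0.0548 and an adjusted p of 0.992. With the block the unadjusted p was 0.0165 and the adjusted p 0.258. Its other probe set was at 0.32 (SE 0.342), with double-negative replicate 3 at 1.561 among the double-positive values. P4ha2 had 1.668, 1.885 and 1.085 in double-positive cells, against 0.828, 1 and 1.222 in double-negative cells. Pairs 1 and 2 were higher by 1.01 and 0.91, and pair 3 was at -0.17, for a log2 difference of 0.58 (SE 0.353).

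Ddit4, an inhibitor of mTORC1 signalling induced by stress and low oxygen, was set by replicate 3. Its ratios were 0.819, 0.915 and 2.855 in double-positive cells, against 1, 0.951 and 6.629 in double-negative cells. Replicate 3 was the highest array in both fractions, a pattern not shared by Bnip3, Pdk1 or Aldoc. Each pair of Ddit4 was lower, at -0.29, -0.06 and -1.22. The log2 difference was -0.52 (SE 0.801), and 0.40 without double-negative replicate 3. Ndrg1, a stress-induced gene linked to growth arrest, had 0.636, 0.791 and 0.881 in double-positive cells, against 0.969, 1 and 1.032 in double-negative cells. These values did not overlap, its 3 probe sets were all lower, between -0.48 and -0.27, and the log2 difference was -0.39 (SE 0.307, an unadjusted limma p of 0.236 and an adjusted p of 1). Higd1a, a mitochondrial protein gene, was at -0.04 (SE 0.328), and its other probe set at 0.35.

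The regions before Bnip3 and P4ha1 are shown because these hypoxia-inducible members stood on opposite sides and both hold the HIF-1 core. They are again the 250 bases before the RefSeq start (GRCm38.p6), chr7:138909507-138909756 on the minus strand for Bnip3 and chr10:59323046-59323295 on the plus strand for P4ha1, with ACGTG and CACGT in capitals. Bnip3 has 1 CACGTG, counted as 2 matches of ACGTG over both strands, and P4ha1 has 1 match of ACGTG. Both regions also hold the other form of the core, GCGTG, which is not counted here and is left in lower case. The pair was chosen by its values, and neither difference passed the adjustment, with or without the block. In the windows described below, 28 of 30 members held ACGTG or GCGTG, beside 46.7% of all genes with a window. Holding the core thus does not set this pair apart from most members. A link between the core and the values of Bnip3 and P4ha1 was not tested.
Bnip3: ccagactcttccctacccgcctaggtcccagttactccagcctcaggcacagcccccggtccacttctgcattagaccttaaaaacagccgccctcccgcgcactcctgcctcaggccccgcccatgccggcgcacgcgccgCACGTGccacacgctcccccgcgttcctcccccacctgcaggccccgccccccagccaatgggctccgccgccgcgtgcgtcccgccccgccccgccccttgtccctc
P4ha1: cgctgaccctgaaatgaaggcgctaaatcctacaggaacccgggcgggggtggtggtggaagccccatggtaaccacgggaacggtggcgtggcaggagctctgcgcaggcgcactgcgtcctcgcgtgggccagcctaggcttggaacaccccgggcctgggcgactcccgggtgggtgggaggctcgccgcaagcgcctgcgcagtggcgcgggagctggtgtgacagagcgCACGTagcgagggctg

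Over the windows that RefSeq gives from 250 bases before to 50 after a start, ACGTG on either strand was present in 24 of 43 windows of the 30 members with an entry, 55.8%, beside 19.6% of 32851 windows of all genes. GCGTG on either strand was present in 62.8% of the members' windows beside 32.4% of all. The median GC content was 62.3% in the members' windows and 52.7% in all windows, and its part in these shares was not tested. The members were listed as known glycolytic and hypoxia-response genes, so the shares describe the list. Of the 6 genes that the blocked fit placed under an unadjusted p of 0.05, Pdk1 and Ldhb had no ACGTG in any window given. Both had GCGTG, Pdk1 in 1 of its 2 windows. Counted by gene, ACGTG was in any window of 21 of the 30 members, 70%, beside 21.8% of all genes with a window. A link between the core and the differences was not tested.

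Of 19 genes with several probe sets, 13 had all of them on the same side and 6 did not. The 6 were Gapdh, Pdha1, Hif1a, Egln3, Bnip3l and Higd1a. Among the 69 probe sets 9 did not overlap between the fractions, beside 9.82% of all named probe sets. With the block 11 of the 69 had an unadjusted p under 0.05, beside 12.7% of all named probe sets. These were all 4 of Ldhb, 2 of the 3 of Pdk1 and 1 each of Hk1, Egln3, Bnip3, P4ha1 and Gpi1, the last on a probe set with a detection score of 3 and a difference of -0.89. Probe sets of 1 gene read the same RNA and are no replicates of each other.

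**Figure D3:**
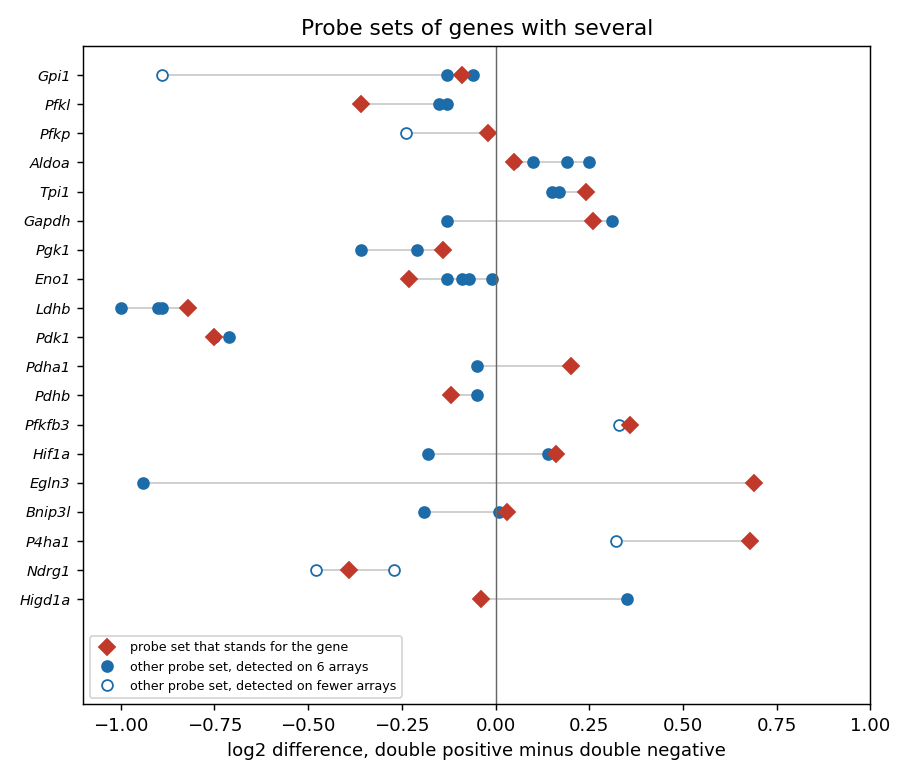
Log2 difference, double positive minus double negative, of every probe set for the 19 genes with several. Red diamonds stand for the gene, blue circles are other probe sets, open where detected on fewer than 6 arrays. The probe sets of Ldhb and Pdk1 lie close together below 0, and those of Egln3 at 0.69 and -0.94.

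Other genes of these pathways were given by lists of their own. Among 8 measured transporters of glucose, lactate and pyruvate, 7 means were higher, beside 54.4% of all genes, with a median log2 difference of 0.46. Without double-negative replicate 1, 3 of 8 were higher with a median of -0.12, and without both replicate 1 arrays 4 of 8 with a median of 0.14. The log2 difference was 1.17 (SE 0.374) for Mpc2, a subunit of the mitochondrial pyruvate carrier. Mpc2 had 2.625, 2.608 and 1.647 in double-positive cells, against 1, 1.356 and 0.73 in double-negative cells, which did not overlap (an unadjusted limma p of 0.013 and an adjusted p of 0.712). It was the 1 gene of the 8 with an unadjusted p under 0.05 in the fit without the block, and with the block Mpc2 (0.00187) and Slc2a3 (0.0159) were, beside 13.9% of all genes. Its partner Mpc1 was at 0.10 (SE 0.502). Slc2a3, the high-affinity glucose transporter GLUT3, was at -0.70 (SE 0.345), with 0.458, 0.683 and 0.783 in double-positive cells against 0.874, 1 and 1.202 in double-negative cells. These values did not overlap, and all 4 of its probe sets were lower. Slc2a1, the common glucose transporter GLUT1, was at 0.77 (SE 0.57), and all 3 of its probe sets were higher. It had 0.842, 1.838 and 1.374 in double-positive cells against 0.318, 1 and 1.339 in double-negative cells. Double-negative replicate 1 was thus its lowest array, and its replicate 3 arrays lay close together. Neither GLUT gene passed the adjustment, with or without the block, and the difference between them was not tested.

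Among 23 other hypoxia-inducible genes, 11 means were higher and 12 lower, with a median of -0.01. Bhlhe40, a transcriptional repressor, was the 1 with an unadjusted p under 0.05 without the block, beside 5.14% of all genes, at -0.76 (SE 0.312, an unadjusted limma p of 0.039 and an adjusted p of 0.903), and its probe set had a detection score of 2. With the block 4 of the 23 had an unadjusted p under 0.05, 17.4% beside 13.9% of all genes, and 0 passed the adjustment. Hilpda, a lipid droplet protein gene, was higher by 0.69 (SE 0.312, blocked unadjusted p 0.018), and Loxl2, a collagen cross-linking enzyme gene, by 0.56 (SE 0.311, blocked unadjusted p 0.0479). Kdm3a, a histone demethylase gene, was at -0.71 (SE 0.352, blocked unadjusted p 0.0324), and Bhlhe40 had a blocked unadjusted p of 0.0179. Among 9 other genes of oxygen sensing, 1 had an unadjusted p under 0.05, without the block (beside 5.14% of all genes) and with it (beside 13.9%). This was Siah2, a ubiquitin ligase that targets prolyl hydroxylases. It was at 1.09 (SE 0.365, an unadjusted limma p of 0.0164 and an adjusted p of 0.753), with 1.357, 2.815 and 2.326 in double-positive cells, against 0.904, 1 and 1.021 in double-negative cells, and a detection score of 3. Arnt, which encodes the stable partner of HIF1A, was at 0.25 (SE 0.377) and Vhl, the ligase subunit that binds hydroxylated HIF1A, at -0.05 (SE 0.338). Among 10 other enzymes of glycolysis and pyruvate use and 4 of gluconeogenesis, 0 had an unadjusted p under 0.05 with or without the block. Of all genes, 13.9% and 5.14% had one.

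The pathways next to glycolysis had mostly higher means, and their size moved with double-negative replicate 1. All 7 measured genes of the pentose phosphate pathway, which makes NADPH and ribose, and 14 of 15 genes of the citric acid cycle had higher means, beside 54.4% of all genes. Their median log2 differences were 0.43 and 0.34. With or without the block 0 of these genes had an unadjusted p under 0.05, beside 13.9% and 5.14% of all genes. In double-negative replicate 1 the median log2 ratio was -1.54 for the pentose phosphate genes and -1.35 for the citric acid cycle genes. Without that array 3 of 7 and 4 of 15 means were higher, with medians of -0.01 and -0.12, beside -0.15 over all named genes. Without both replicate 1 arrays 6 of 7 and 11 of 15 were higher, with medians of 0.27 and 0.10, beside 0.02 over all named genes. With the 5' to 3' control measure as a covariate the medians were 0.07 and -0.05, beside -0.13 over all named genes. In double-negative replicate 1 the glycolytic enzymes stood at -0.33.

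**Figure D4:**
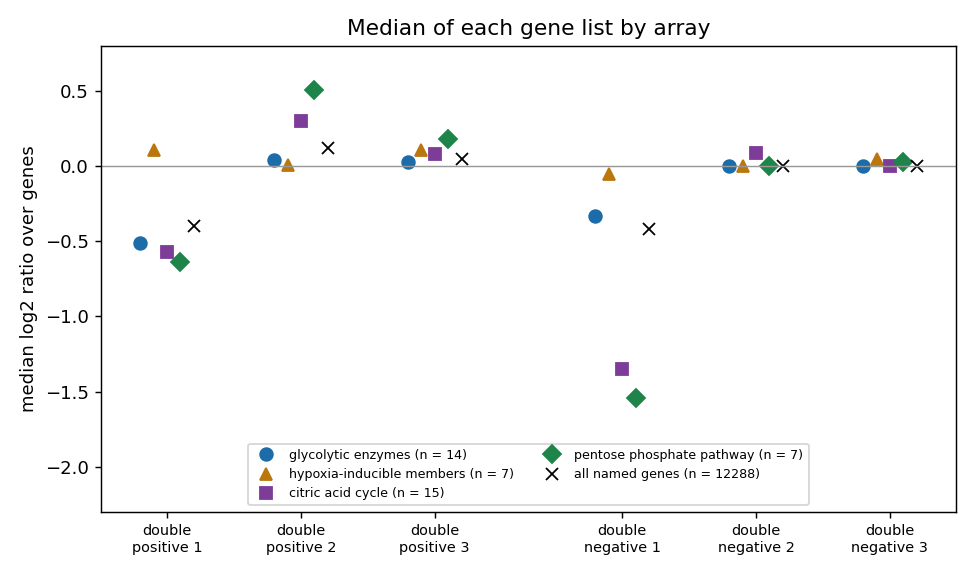
Median log2 ratio over the genes of each list on each of the 6 arrays, double-positive arrays on the left and double-negative arrays on the right. In double-negative replicate 1 the citric acid cycle (-1.35) and pentose phosphate (-1.54) genes lie below the glycolytic enzymes (-0.33), the hypoxia-inducible members (-0.05) and all named genes (-0.42).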

How the data were processed

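Transcripts of sorted mouse cells were measured on 6 arrays, 3 per fraction, from 6 ug of total RNA each, per the labels' protocols. The authors deposited linear ratios for 45101 probe sets. They were divided by each probe set's double-negative median, which equals 1 for 100% of them. Details of summarising and scaling were not given in the sources used here. Brightness over background cannot be read from ratios, and precision is limited by having 3 arrays per fraction. A second deposited table gives the authors' fold, a p-value and a detection score per probe set, per the file headers; its fold matched the geometric means of the ratios within 1% for 100% of probe sets.

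Gene names came from that table and were updated through RefSeq (GRCm38.p6), 26 probe sets by gene ID, which named Gapdh. Each of 12288 genes stood by the probe set with the highest detection score, then the plainest and lowest identifier. Ratios were taken to log2 with no pseudocount, 64 control probe sets were left out, and limma 3.58.1 under R 4.3.3 gave the tests (two-sided, Benjamini-Hochberg over all genes, threshold 0.05), run first on simulated data. SE is on the log2 scale. The members and lists were chosen with earlier results of these data known. Members were given with every array's value where the fractions did not overlap, where they had the largest difference of their role, and for Gapdh and Hif1a. Values of Ldha, Hk2, Aldoc, Eno1, Pdk1, P4ha2, Ddit4, Slc2a1, Slc2a3, Mpc1, Arnt, Vhl, Hilpda, Loxl2 and Kdm3a were added after they had been seen.

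Deviations from the fraction mean correlated at 0.499, 0.398 and 0.242 between arrays of replicates 1, 2 and 3 over 12288 genes, and at 0.139 for the contrast of replicates 2 and 3 alone. Between arrays of unlike number the correlations were -0.434 to 0.209. The labels do not say what a number shares, so the pairing comes from these data, and the blocked limma p-values rest on the same data. For members and the other pathway lists, blocked values are given where they moved a count or a p across its threshold.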

Additional observations from a re-analysis of the deposited data

How the results depend on the processing

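Over all genes, 0 passed in the reported fit and under 16 of 21 other settings. The count was 1 with a pseudocount of 0.437, 3 with a pseudocount of 1, 434 with array weights, 0 with the replicate block, and 81 with the replicate block on genes with the highest detection score. Leaving out 1 array gave 0 to 1. Egln3 was the 1 member that passed under any of these settings, with array weights (0.75, limma adjusted p = 0.0484).

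In the reported fit 0 members higher and 0 lower had an unadjusted limma p under 0.05, beside 5.14% of all genes. Shares of all genes tested, in either direction, follow in brackets. With the replicate block members numbered 2 higher and 4 lower (13.9%). They numbered 2 and 5 with the block on genes with the highest score (16.2%), and 2 and 3 with the block without both replicate 1 arrays (14.2%). Without those arrays and no block they numbered 2 and 1 (11.3%). They numbered 1 and 1 after quantile normalization (4.63%), and 0 and 2 with arrays centred on their median (7.39%). They numbered 2 and 2 with array weights (19.4%), and 2 and 2 with the 5' to 3' covariate (10.8%). Either pseudocount gave 2 and 0 (5.78% for 0.437 and 5.83% for 1), and the filter on detection 1 and 0 (3.73%). The fit over all named probe sets gave 0 and 1 (4.71% of probe sets). The authors' deposited p gave 2 and 0 on 1 probe set per gene (3.82%). Leaving out 1 array gave 0 to 1 higher and 0 to 1 lower, beside 3.09% to 6.97% of all genes. The members' median difference was -0.15 to 0.17 when 1 array was left out, the 0.17 without double-positive replicate 1. The fit on all probe sets of the value table and both combined block settings were chosen after seeing the data.

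Directions reversed for Egln3 as the mean over probe sets (-0.12), and with the covariate for Gapdh (-0.10), Ldha (-0.02) and Hif1a (-0.25). Leaving out 1 array gave -0.31 to 0.52 for Hif1a, which was -0.06 and -0.0005 without replicates 2 and 3 of the double-positive cells and lowest without double-negative replicate 1. It gave -0.17 to 0.51 for Gapdh, -0.05 to 0.42 for Ldha and -1.09 to 0.40 for Ddit4. The causes were not tested. Hk1, Aldoc, Ldhb, Pdk1, Bnip3, Ndrg1, Pfkfb3, P4ha1 and P4ha2 had the same sign under all 19 settings run for single genes. The replicate block, the detection filter, both together, and limma's trend and robust variance leave a gene's difference as it was. These settings could not change a sign. Nor could the mean over probe sets for Hk1, Aldoc, Bnip3 and P4ha2, which have 1 probe set each. Small values included -0.02 for Aldoc without double-positive replicate 2 and 0.09 for P4ha2 with array weights. With 3 arrays per fraction and no brightness values, what signal over background limits could not be measured.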
